A study of Homo sapiens with 9 samples.

Results

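The replication-dependent histone genes, which lie in clusters on human chromosomes 6 and 1 with a single H4 gene on chromosome 12, were followed through 9 libraries of HuH-7, an established human hepatocellular carcinoma line. Members were all protein-coding genes of the H1, H2A, H2B, H3 and H4 cluster series, without pseudogenes. This gave 70 genes, of which 38 matched one of the 63677 gene identifiers in the count files: 6 H1, 10 H2A, 10 H2B, 6 H3 and 6 H4 genes. The other 32 (7 H2A, 8 H2B, 8 H3 and 9 H4 genes) were not analysed here. Each condition was 1 library: untreated control, acetaminophen (10 mM), serum exosomes, caffeine (2 mM), acetaminophen together with exosomes or with caffeine, and arsenic at 5 or 15 µM or, at 5 µM, together with copper (5 µM). The exosomes were those from 1 ml of serum for a number of cells that the label gives. The concentrations are as in the labels, and the combined cultures received the same amounts as the single ones. Exposure times, the source of the serum and how many cultures stood behind a library were not given in the sources used here.

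Clustered histone genes supply the core histones H2A, H2B, H3 and H4 and the linker histone H1 that package newly made DNA, and their mRNAs rise at the start of S phase and are destroyed when DNA synthesis stops. Most of these mRNAs carry no poly(A) tail and end instead in a conserved stem-loop bound by SLBP. They are therefore measured far better in RNA depleted of ribosomal RNA, as here, than in poly(A)-selected RNA. HuH-7 cells divide in culture.

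The stem-loop is shown because it defines the class and differs between families in its stem. It was found, with a perfectly paired stem, in transcripts of 20 of the 38 members (52.6%) and of 53 of 19646 other protein-coding genes (0.27%). These others are all such genes of GENCODE 29 outside the 38, and clustered histone genes without a matched identifier were not taken out of them. Several of the other members are annotated there as coding sequence alone, which ends before the stem-loop. All 15 H2A, H2B and H3 members with a match shared a single stem, and all 5 H4 members with a match shared another. Capitals mark the stem and loop, written as DNA 5′ to 3′.
H2BC21: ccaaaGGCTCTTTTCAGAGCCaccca
H2BC5: ccaaaGGCTCTTTTAAGAGCCacgca
H4C8: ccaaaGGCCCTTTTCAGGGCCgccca
H4C16: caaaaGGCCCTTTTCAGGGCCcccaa

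Promoters of 36 of the 38 members were listed in RefSeq (GRCh38.p14, 250 bases before to 50 after the start). The letters CCAAT, on either strand, occurred in all 31 H1, H2A, H2B and H3 entries and in 0 of 5 H4 promoters. They occurred in 34.6% of 34943 promoters of the same length. H2AC7 and H3C4 share the same window, so 30 of the 31 have different coordinates. GGTCCG, letters of the H4 promoter element, occurred in 5 of 5 H4 promoters (11.2% of all promoters), and AAACACA, the H1 box, in 6 of 6 H1 promoters (5.66%). The octamer ATTTGCAT was in 6 of 10 H2A and 6 of 10 H2B promoters (1.77%), and TATAAA in 24 of 36 (11.6%). Both strands were searched for each, and matches of different words may overlap. These counts are not of independent sequences. Windows of several H2A and H2B neighbours overlap by 253 to 286 bases on opposite strands, so that a match can count for both genes. The windows of H2AC18 and H2AC19, of H3C14 and H3C15, and of H4C14 and H4C15 are near-identical. The promoters of some are printed with these words in capitals: the neighbours H2AC11 and H2BC11, whose windows overlap by 253 bases on opposite strands, H1-2 and H4C16, since their values part below. H2AC11 lies at chr6:27132793-27133092 (plus strand), H2BC11 at chr6:27132746-27133045 (minus), H1-2 at chr6:26056421-26056720 (minus) and H4C16 at chr12:14771082-14771381 (minus).
H2AC11: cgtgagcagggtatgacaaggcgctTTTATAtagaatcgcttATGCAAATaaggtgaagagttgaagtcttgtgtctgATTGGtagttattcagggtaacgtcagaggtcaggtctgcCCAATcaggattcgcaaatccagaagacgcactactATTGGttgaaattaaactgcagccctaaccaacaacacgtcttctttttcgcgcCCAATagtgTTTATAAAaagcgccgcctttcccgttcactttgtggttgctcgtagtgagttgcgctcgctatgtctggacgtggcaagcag
H2BC11: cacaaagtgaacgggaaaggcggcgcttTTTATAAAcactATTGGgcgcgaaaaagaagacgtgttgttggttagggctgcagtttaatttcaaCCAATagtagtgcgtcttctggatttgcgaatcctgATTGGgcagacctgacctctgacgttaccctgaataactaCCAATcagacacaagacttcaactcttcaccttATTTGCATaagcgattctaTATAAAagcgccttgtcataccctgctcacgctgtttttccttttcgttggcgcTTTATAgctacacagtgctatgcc
H1-2: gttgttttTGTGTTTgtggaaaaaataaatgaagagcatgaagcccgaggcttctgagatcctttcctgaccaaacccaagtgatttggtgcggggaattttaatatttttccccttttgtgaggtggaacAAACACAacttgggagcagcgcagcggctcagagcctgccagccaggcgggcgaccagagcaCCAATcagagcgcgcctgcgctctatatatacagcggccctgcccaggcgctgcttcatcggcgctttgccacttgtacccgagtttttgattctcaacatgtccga
H4C16: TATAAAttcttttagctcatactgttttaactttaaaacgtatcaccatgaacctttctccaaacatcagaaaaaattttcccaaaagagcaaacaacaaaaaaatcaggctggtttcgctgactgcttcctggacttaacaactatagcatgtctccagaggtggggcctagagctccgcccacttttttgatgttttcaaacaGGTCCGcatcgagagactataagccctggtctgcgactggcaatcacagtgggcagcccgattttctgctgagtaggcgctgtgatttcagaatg

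The libraries held 658725 (acetaminophen with exosomes) to 8227906 (caffeine) counts on genes, and 951816 in the control, so that 3 counts stood for 0.365 to 4.55 CPM (gene counts scaled to a common library size). Of the 38 members, 28 had at least 1 CPM in at least 2 libraries and were tested (5 H1, 7 H2A, 9 H2B, 3 H3 and 4 H4), and these held 99.9% of all member counts. H2AC18 and H3C15 passed at low levels, through the control and the 2 libraries with exosomes, so that their lower level elsewhere was set by this filter. With acetaminophen and exosomes they had 2 counts and 1 count. Without them, the members apart and lower than in the control (as defined below) were 25 of 26 with acetaminophen, 2 with exosomes, 21 with caffeine, 21 and 26 with arsenic at 5 and 15 µM, and 15 with arsenic and copper. The other 10 were below the filter, with H2AC7 at 36 counts (4.21 CPM) in the caffeine library, and H2AC19, H2BC1, H4C14 and H4C15 had no count in any library. Among the 38, 12 shared over 50% of their 50-base windows with another gene, 7 of them tested (H2AC13, H2AC18, H2BC12, H3C4, H3C13, H3C15 and H4C11). Reads of such copies may have been discarded as not unique or split, so these 7 are uncertain. The acetaminophen and arsenic 5 µM libraries stood apart: small nucleolar RNA genes took 11.5% and 35.5% of their counts (3.41% to 8.35% in the other 7), and protein-coding levels fell with GC content (r = -0.52 and -0.43 across 13906 genes, -0.12 to 0.29 in the others). Members had a median GC of 55.9%, against 50% for tested protein-coding genes, so medians and counts of members apart for pairs with these libraries are also given with GC and length trends removed. Family levels and the values of single genes are uncorrected. The hepatocyte genes, such as ALB at 3330 to 12610 CPM, were detected in all 9 libraries for 12 of 12. Of 13 markers of blood, endothelial and stromal cells 8 were too low to test, PPBP, PF4 and PECAM1 were at 0 throughout, and LYZ, at 26.2 to 272 CPM, held most of the summed level of 35.1 to 288 CPM.

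Histone genes took 0.959% of gene counts in the control (exact binomial 95% interval 0.940 to 0.979), the highest of the 9 libraries. The share was 0.586% with exosomes, 0.427% with acetaminophen and exosomes, 0.39% with arsenic and copper, 0.292% with caffeine, 0.25% with acetaminophen and caffeine, and 0.207% with arsenic at 5 µM. It was lowest with acetaminophen alone, 0.148% (0.142 to 0.155), and with arsenic at 15 µM, 0.0911% (0.0877 to 0.0946). No 2 neighbours in this order had overlapping intervals. The order depends on what is counted: as a share of protein-coding counts arsenic at 5 µM, at 0.424%, was above caffeine (0.409%) and acetaminophen with caffeine (0.330%), and by TMM-scaled sums it was so too, at 3224, 2807 and 2559 CPM. These intervals cover counting error only, since PCR reads without molecular identifiers are not independent molecules. With 1 library per condition no spread between cultures could be measured. In bulk RNA, fewer S phase cells and less histone mRNA per cell cannot be told apart.

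**Figure D1:**
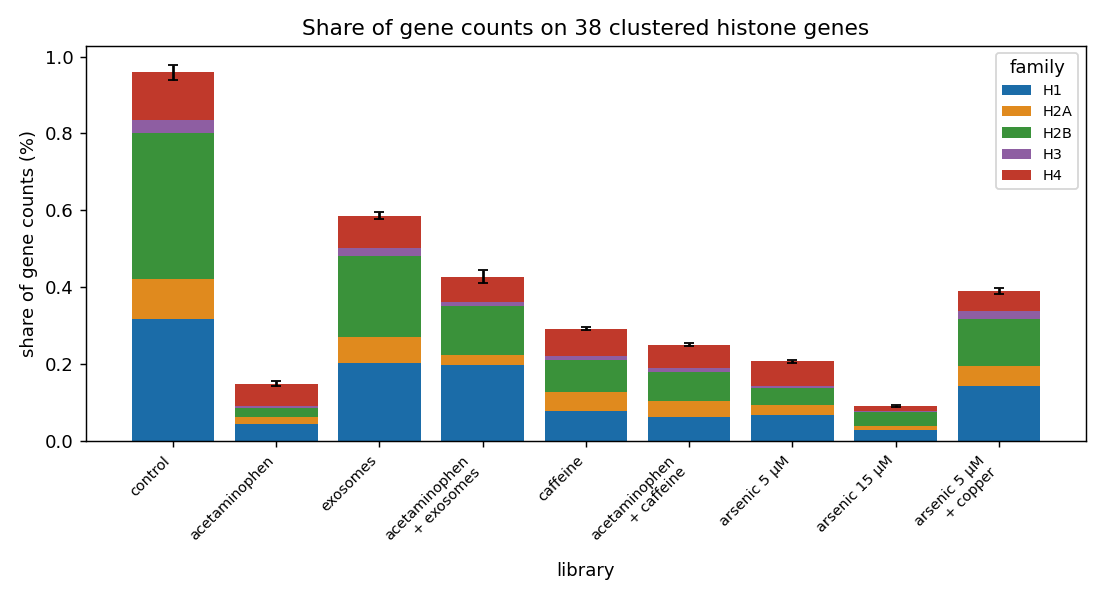
Share of gene counts on the 38 histone genes (vertical axis, %) in each of the 9 libraries, stacked by family. Black bars are exact binomial 95% intervals of the total; the control stands at 0.959% and arsenic at 15 µM at 0.0911%.

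The control was the highest library for 23 of the 28 tested members and among the highest pair for 27. Acetaminophen alone was the lowest for 13, and arsenic at 15 µM for 12. The median member stood at 273 CPM, scaled by the trimmed mean of M values (TMM), in the control and at 29.5 and 29.6 CPM in those 2 libraries.

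**Figure D2:**
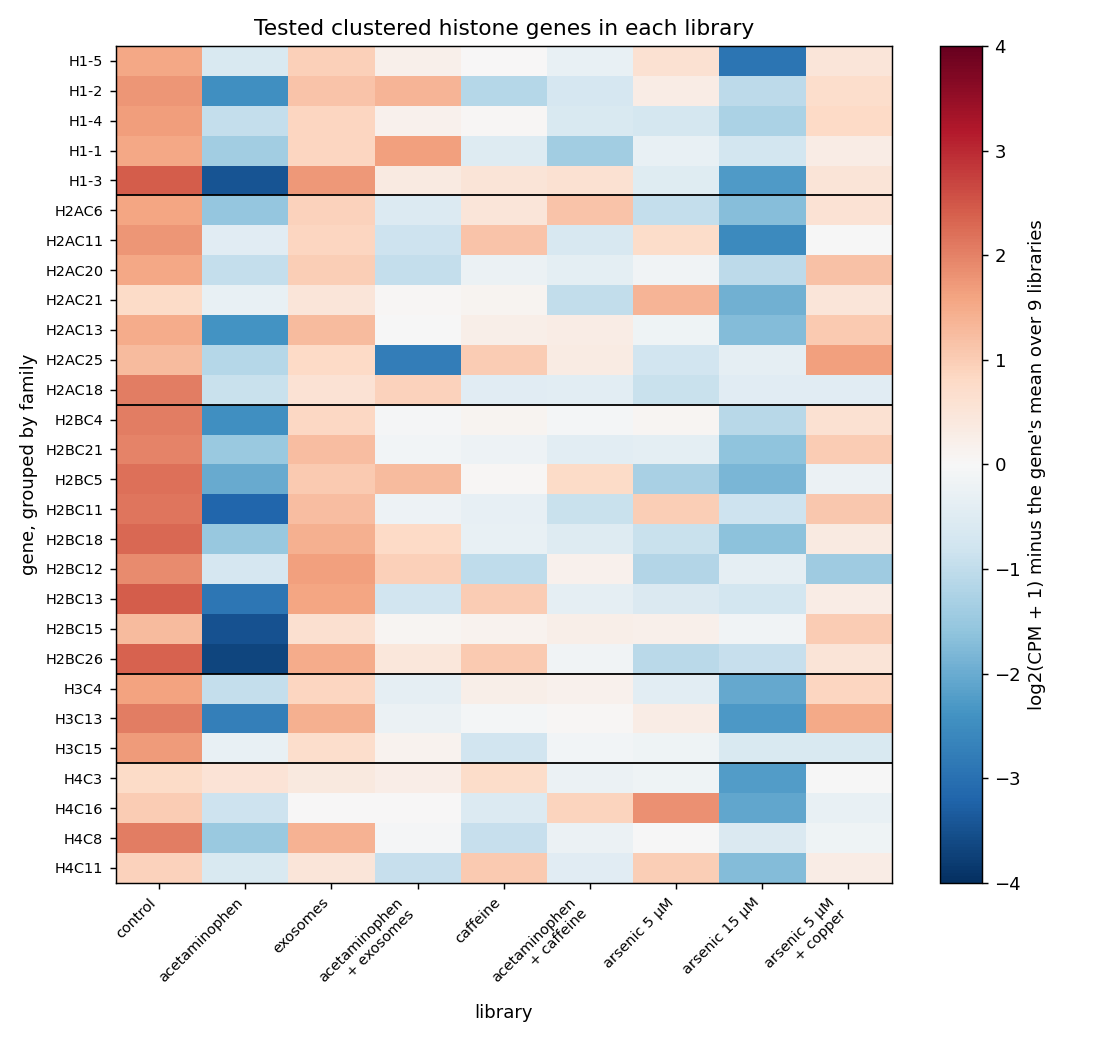
Each row is 1 of the 28 tested histone genes and each column a library; colour gives log2(CPM + 1) minus the gene's own mean over the 9 libraries. The control column is high for nearly all rows, the acetaminophen and arsenic 15 µM columns are low, and H4C3 keeps its level with acetaminophen.

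The families' shares of the member counts differed between libraries. The linker histone H1 genes made up 32.9% of member counts in the control, H2B genes 39.5%, H4 genes 12.9%, H2A genes 11% and H3 genes 3.62%. These shares cover matched genes only: 6 of 6 H1, 10 of 17 H2A, 10 of 18 H2B, 6 of 14 H3 and 6 of 15 H4 genes. They are thus not the families' full shares. With acetaminophen alone H2B genes were at 16% (14.4 to 17.8) and H4 genes at 39.2% (36.9 to 41.4) of member counts. Arsenic at 5 µM gave a similar mix, with H4 at 30.3% and H2B at 22.4%. With arsenic at 15 µM the mix was closer to the control, with H2B at 40.4%, H1 at 32.2% and H4 at 15.5%. Acetaminophen with exosomes had the largest H1 share, 46%.

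For acetaminophen given alone, all 28 tested members stood below the control and 27 were apart, meaning a ratio of at least 2 with a 95% counting interval that leaves out 1. Of all 18237 tested genes, 12.1% were apart and lower in this pair. The median log2 ratio was -3.34 (-3.07 with members at 0 set to 3 counts), against -0.20 for all genes, and -3.18 with GC and length trends removed, where 23 members were apart and lower. The correction moved some members far, H4C11 from -1.52 to -0.13, H2AC21 from -1.08 to 0.28 and H2BC12 from -2.59 to -1.28, and the median of the 4 H4 genes from -1.68 to -0.76. Summed over 38 members the level went from 8808 to 1323 CPM, or 0.150 of the control. H2B genes stood at 0.0609 of their control level, H3 at 0.115, H1 at 0.136, H2A at 0.167 and H4 at 0.455.

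H2BC13, an H2B gene, gave 266 CPM in the control and 5.62 with acetaminophen, 147 with exosomes and 28 with both, and 98.4 with caffeine and 37.9 with both. It gave 32.3, 29.1 and 59.7 CPM with arsenic at 5 µM, at 15 µM and at 5 µM with copper. The acetaminophen library was thus lower in each of the 3 matched pairs, 47.4-fold (23.7 to 111), 5.25-fold (3.43 to 8.46) and 2.6-fold (2.23 to 3.05). H2BC11 was 43.7-fold lower (25.8 to 80.6) with acetaminophen than in the control, at 14 against 445 counts. H1-3, a linker histone gene, had 1 count against 101, a ratio of 139 with an interval of 24.4 to 5538. H2BC26 had 67 counts in the control and 0 with acetaminophen, which makes it at least 30.7-fold lower at a floor of 3 counts in that library.

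H4C3 was the tested member that was not apart. It stood at 420 CPM in the control, 366 with acetaminophen, 324 with exosomes, 299 with acetaminophen and exosomes, 413 with caffeine, 213 with acetaminophen and caffeine, 219 with arsenic at 5 µM, 52 with arsenic at 15 µM and 244 with arsenic and copper. It was lowest in the arsenic 15 µM library, stood at 0.521 of its control level with arsenic at 5 µM and, with acetaminophen and caffeine, at 0.516 of its level with caffeine. It held 522 of the 738 H4 counts behind the H4 share with acetaminophen. No 50-base window of H4C3 is shared with another gene.

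The same acetaminophen dose on the exosome and caffeine backgrounds gave smaller differences. With exosomes 14 of 28 members were apart and lower (5.17% of all genes) and none higher, at a median log2 ratio of -0.95. H2AC20 was 3.92-fold lower (2.5 to 6.5), whereas the linker histones H1-1, at 291 against 169 CPM, and H1-2, at 749 against 638 CPM, stood higher in the combined culture. With caffeine 5 members (17.9%) were apart and lower (13% of all genes) and 2 (7.14%) higher (12.6%), at a median of -0.18. The lower count was thus little above the background here and the higher count below it. H2AC11 was 3.49-fold lower (3.07 to 3.99) and H4C11 2.86-fold lower (2.46 to 3.35). H4C16 was 2.7-fold higher (2.49 to 2.93), at 306 against 113 CPM, and H2BC12 was 2.31-fold higher (2.02 to 2.65). These 3 pairs share no library.

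**Figure D3:**
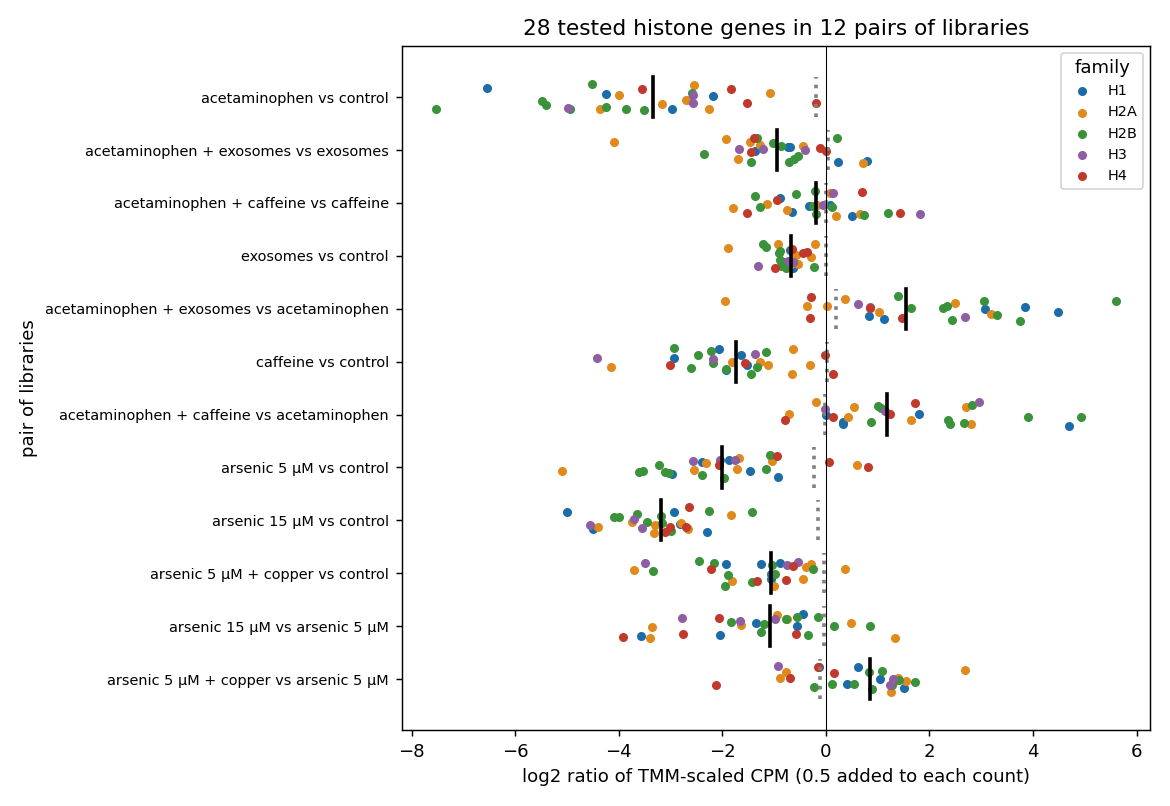
Each dot is a tested histone gene, placed by its log2 ratio between 2 libraries (horizontal axis; 0.5 added to counts) in 12 pairs; black bars are the members' medians and grey dotted bars the medians of all 18237 genes. The acetaminophen and arsenic 15 µM pairs with the control lie farthest left, with medians of -3.34 and -3.18.

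Exosomes alone were nearest to the control: all 28 tested members were lower, by a median log2 ratio of -0.68, and 3 were apart (1.44% of all genes). These were H2BC4, at 308 against 720 CPM, H2BC5, at 231 against 515 CPM, and the low H2AC18. The count of 3 was 9 with DESeq2's size factors. In the presence of acetaminophen the exosome library was the higher one: 17 members were apart and higher than with acetaminophen alone (10.2% of all genes) and none lower, at a median of 1.55. With GC and length trends removed the median was 1.59, with 14 members higher and 2 lower (H2AC20 and H4C11). H1-2 stood 14.4-fold higher (11.3 to 18.6), at 749 against 51.9 CPM, and H2BC5 9.97-fold higher (7.03 to 14.5), at 266 against 26.7 CPM. H4C3 and H2AC11 were on the low side in this pair, at ratios of 0.816 (0.696 to 0.953) and 0.773 (0.505 to 1.16).

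With caffeine alone the levels were below the control, with 23 of 28 members apart and lower (8.63% of all genes), a median log2 ratio of -1.73 and a summed level of 0.319 of the control. H1-2 was 7.69-fold lower (7.06 to 8.38), at 129 CPM, and H4C8 8.08-fold lower (6.86 to 9.52), at 35.1 CPM. H4C11, an H4 gene with near-identical copies, was at 111 against 101 CPM. Relative to the exosome library in place of the control, 14 members were apart and lower with caffeine (10.3% of all genes). In the presence of acetaminophen the direction was the other one: 17 members were apart and higher with caffeine than without (18.8% of all genes) and none lower, at a median of 1.19. With GC and length trends removed the median was 1.05, with 14 members higher and 2 lower (H2AC21 and H4C11), and that of the 3 H3 genes went from 1.14 to -0.13. H2BC15 went from 6 to 362 counts, 16.2-fold (7.37 to 44.4), and H1-3 from 1 to 144 counts, with a ratio of 38.7 and an interval of 6.83 to 1538. H4C3 and H2AC21 were on the low side, at 0.582 (0.524 to 0.647) and 0.61 (0.424 to 0.891) of their level with acetaminophen alone.

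Arsenic at 15 µM gave the lowest summed histone level of the 9 libraries. All 28 tested members were apart and lower than in the control (14.4% of all genes), at a median log2 ratio of -3.18 and of -3.15 with GC and length trends removed. The summed level was 975 CPM, or 0.111 of the control, and the families lay close together, from 0.0631 for H3 to 0.133 for H4. H1-5, a linker histone gene, stood at 988 CPM in the control, 519 with arsenic at 5 µM and 43.7 at 15 µM, and at 473 with arsenic and copper. Between control and 15 µM it was 22.6-fold lower (18.7 to 27.5), and H1-3 was 34-fold lower (16.6 to 80.8), from 101 counts to 8.

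At 5 µM 23 members were apart and lower than in the control (15% of all genes), at a median of -2.002, or -1.77 with GC and length trends removed, where 18 were apart and lower and 3 higher. H2BC5 was 11.7-fold lower (9.43 to 14.5), at 44.2 CPM, and H2BC18 9.36-fold lower (7.54 to 11.7), also at 44.2 CPM. H4 genes as a family kept 0.858 of their control level (0.799 to 0.921), while H2B genes kept 0.207. With GC and length trends removed the median log2 ratio of the 4 H4 genes went from -0.44 to 0.15 and that of the 9 H2B genes from -3.04 to -2.53. H4C16 held 1373 of the 2295 H4 counts there, and its level was 333 CPM in the control and 584 with arsenic at 5 µM, its highest library; the other 7 lay between 38.4 and 306 CPM. H2AC21 was also above the control, at 100 against 65.6 CPM.

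Between the 2 arsenic doses, 14 members were apart and lower at 15 µM (17.5% of all genes) and none higher, at a median of -1.09, or -1.53 with GC and length trends removed, where 16 were. H4C16 was 15.2-fold lower (12.5 to 18.7) and H1-5 11.9-fold lower (9.85 to 14.4). H2BC12 ran the other way, at 67.4 against 37.4 CPM, and H2AC25 gave 12 against 7 counts.

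With copper added to arsenic at 5 µM, 17 members were apart and lower than in the control (7.1% of all genes), at a median of -1.06 and a summed level of 0.433. H2BC12 was 10.1-fold lower (7.97 to 13), at 31.9 CPM, and H2BC5 5.47-fold lower (4.7 to 6.38), whereas H2AC25 was at 20.4 against 15.4 CPM. Relative to the exosome library in place of the control, 6 members were apart and lower (8.42% of all genes). Relative to arsenic alone, 12 members were apart and higher (16.5% of all genes) and 1 lower (13.7%), at a median of 0.85. H2AC25 went from 7 to 55 counts, 6.85-fold (3.11 to 17.8), and H1-4 was 2.83-fold higher (2.45 to 3.28), while H4C16 was 4.38-fold lower (3.9 to 4.94). With GC and length trends removed this median was 0.29, with 5 members apart and higher and 4 lower.

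Over all 9 libraries, an additive model (edgeR's quasi-likelihood test, Benjamini-Hochberg adjustment over 18237 genes) took departures from additive effects as its spread. The acetaminophen coefficient was negative for 28 of 28 members, with a median log2 fold change of -1.43 (-0.04 for all genes). With a library left out this median ran from -2.14 (without acetaminophen with caffeine) to -0.56 (without the control). No member passed an adjusted p of 0.05 (0.0165% of all genes did, on the lower side), and 14 had an unadjusted p under 0.05 (5.35% of all genes). H2BC13 came nearest, at a log2 fold change of -2.91 (SE 0.70, adjusted p 0.103). DESeq2 called it alone among the members (adjusted p 0.0152), and called 49 of all genes. H2AC11 (-1.92, SE 0.63) and H2BC26 (-2.38, SE 0.82) followed, at edgeR adjusted p of 0.453 and 0.505. Without the arsenic 5 µM library H2AC11, H2BC11, H2BC13 and H2BC26 passed, and without the arsenic 15 µM library H2BC13 and H2BC26 did. Over all genes 179 and 113 passed in these fits in either direction, against 4 with all 9 libraries.

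The arsenic coefficient was negative for 26 of 28 members, with a median of -1.25 (0.07 for all genes). By edgeR no member passed (0.154% of all genes did, on the lower side), 9 had an unadjusted p under 0.05 (9.16% of all genes), and DESeq2 called 0. H2BC12 (-2.17, SE 0.68), H2BC5 (-2.32, SE 0.75) and H2BC13 (-1.99, SE 0.67) had the smallest edgeR adjusted p, 0.164, 0.181 and 0.221. Without the arsenic 5 µM library 5 members passed (H2AC11, H2BC5, H2BC12, H2BC13 and H2BC18). In that fit 778 of all genes passed for the arsenic term in either direction, against 90 with all 9 libraries. Without the control the median was 0.87, in a fit with no untreated library, whose baseline rests on treated libraries only. The exosome library in place of the control, chosen after seeing the data, gave negative median log2 ratios of the members. They were -1.28 with arsenic at 5 µM, -2.3 at 15 µM and -0.37 with arsenic and copper.

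For caffeine the median coefficient was -0.40 and for exosomes 0.04. By edgeR no member passed for either (0.0603% of all genes on the lower side for caffeine and 0% for exosomes), none had an unadjusted p under 0.05 (7.32% and 0.62% of all genes), and DESeq2 called 0. The smallest p was that of H1-1 for both, at log2 fold changes of -1.35 (SE 0.77, edgeR adjusted p 0.723) and 1.12 (SE 0.82, edgeR adjusted p 1). H2AC18 and H3C15, both at low counts, followed for caffeine at -2.69 and -2.17. H1-2 and H2AC11 followed for exosomes at 0.89 and -0.66. Without the control the medians were 1.15 and 2.17. No untreated library is left in that fit, so its baseline rests on treated libraries only.

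An extra term for arsenic at 15 µM, the departure of that library from the arsenic level shared with the other 2, was negative for 26 of 28 members, with a median of -1.65. H3C13, an H3 gene with near-identical copies, was called by edgeR (log2 fold change -3.57, SE 0.99, adjusted p 0.037; 0.291% of all genes were called on the lower side). It had 121.6 CPM in the control, 35.7 with arsenic at 5 µM, 5.02 at 15 µM and 84.2 with arsenic and copper. DESeq2 did not call it (adjusted p 0.116) but called H1-5, H2AC11 and H2AC21, and with DESeq2's size factors in edgeR or without the count filter no member was called. Terms for acetaminophen by caffeine, acetaminophen by exosomes and copper had no member called by edgeR or DESeq2 (0% of all genes each by edgeR). Their medians were 2.43, 0.52 and 0.98, with 5, 0 and 7 members at an unadjusted p under 0.05, all positive (1.09%, 0.477% and 2.35% of all genes, in either direction).

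Genes that run S phase did not follow the histone genes in every library. A list of 33 S phase and DNA replication genes, among them MCM7, a subunit of the replicative helicase, RRM2, a ribonucleotide reductase subunit, and PCNA, the sliding clamp, summed to 4388 CPM in the control. The sum was 4741 with acetaminophen, where 7 of 33 genes were apart and higher and 4 lower, at a median log2 ratio of 0.41, beside -3.34 for the histone genes. RRM2 stood at 421 against 201 CPM in the control and MCM7 at 362 against 803 CPM. MCM2, MCM3 and MCM4, of the same helicase, stood at 173, 459 and 413 CPM with acetaminophen and at 345, 417 and 298 CPM in the control. With arsenic at 15 µM the sum was 1341 CPM, with 23 of 33 genes apart and lower and 1 higher, at a median of -1.72. PCNA stood at 25.5 against 242 CPM there and RRM2 at 39.4 CPM. CCNE1, cyclin E1, which drives S phase entry, was the exception at 62.4 against 22.2 CPM in the control, and was the only list gene that edgeR called, in the arsenic 15 µM term. With caffeine and with arsenic at 5 µM the sums were 2986 and 2867 CPM. No list gene was called for the other terms by edgeR.

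**Figure D4:**
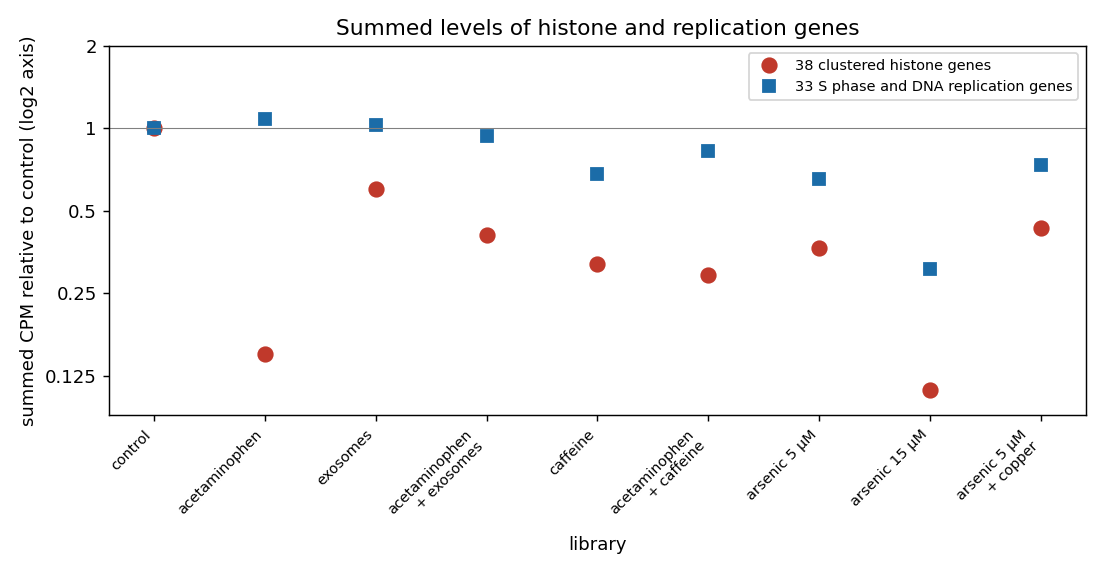
Summed CPM relative to the control (vertical axis, log2 scale) of the 38 histone genes (circles) and of 33 S phase and DNA replication genes (squares) in each library. With acetaminophen the histone genes stood at 0.150 and the replication genes at 1.08; with arsenic at 15 µM they stood at 0.111 and 0.306.

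Factors that make and process histone mRNA were measured as a list of 20 genes, 19 of them tested and none called by edgeR in any term. Their summed level was 859 CPM in the control, 1195 with acetaminophen and 1328 with arsenic at 15 µM. SLBP, which binds the stem-loop printed above, stood at 112 CPM in the control, 264 with acetaminophen, 122 with exosomes, 117 with both, 54.6 with caffeine, 84.3 with acetaminophen and caffeine, 161 with arsenic at 5 µM, 177 at 15 µM and 104 with arsenic and copper. SLBP was thus above its control level with acetaminophen and with arsenic at 15 µM, where the summed histone level was lowest. It was below the control with caffeine and with acetaminophen and caffeine, where that level was next lowest, at 2807 and 2559 CPM. UPF1, a helicase that takes part in histone mRNA decay, was between 66.8 (arsenic at 5 µM) and 800 CPM (acetaminophen with caffeine). SYMPK, of the cleavage complex, was between 76.5 and 206 CPM, and YY1, a transcription factor, between 62.3 and 108 CPM. NPAT, the coactivator of histone gene transcription, was at 9.65 CPM in the control, 35.1 with acetaminophen and 39.55 with arsenic at 5 µM. Others of the list were lower with acetaminophen, LSM10 at 3.51 against 38.6 CPM in the control and HINFP at 14.74 against 28.95 CPM. Of the 19 tested, 7 were apart and higher in that pair and 1 lower, and 8 had a negative log2 ratio.

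Variant histone genes outside the clusters, a list of 12 with 11 tested, had no call by edgeR in any term. They summed to 1250 CPM in the control, 969 with acetaminophen, 879 with arsenic at 15 µM and 647 with caffeine. H2AZ1, the H2A.Z gene, stood at 388 CPM in the control, 298 with acetaminophen and 286 with arsenic at 15 µM, and H3-3B, which encodes H3.3, at 221, 175 and 267 CPM. The variants' median log2 ratio was -0.62 with acetaminophen (5 of 11 apart and lower, 12.1% of all genes). With arsenic at 15 µM it was -0.71 (4 of 11, 14.4% of all genes), and both were well short of the clustered genes' medians. With arsenic at 5 µM it was -1.67 (6 of 11, 15% of all genes), beside -2.002 for the clustered genes. With acetaminophen 9 of 11 were negative, H2AX at 33 against 144 CPM in the control and H3-3A at 22.5 against 92.6 CPM. H2AZ2, another H2A.Z gene, stood at 260 CPM with acetaminophen, against 140 CPM in the control. The 18 histone chaperone genes, which hand histones to DNA, also had no call by edgeR. NPM1 stood at 1049 CPM in the control, 835 with acetaminophen and 450 with arsenic at 15 µM, and NAP1L1 at 229, 623 and 152 CPM. RBBP4 stood at 214, 323 and 127 CPM and SSRP1 at 306, 231 and 133 CPM in the same libraries.

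Ribosomal protein genes, another family of short mRNAs looked at after the values were seen, also moved with the acetaminophen and arsenic 5 µM libraries. Of 80 tested, 61 were apart and lower with acetaminophen alone than in the control, at a median log2 ratio of -1.997. With arsenic at 5 µM 61 were apart and lower, at -2.12, beside -2.002 for the histone genes. With arsenic at 15 µM 30 were, at -0.80, beside -3.18. With caffeine they also turned with the background: the median was -1.06 against the control (46 apart and lower) and 1.33 when added to acetaminophen (46 apart and higher). With exosomes it was -0.49 against the control (74 of 80 negative) and 1.87 when added to acetaminophen (58 apart and higher). Their part in the histone results was not tested.

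Tested neighbours whose promoter windows overlap on opposite strands formed 5 H2A and H2B pairs. With acetaminophen the H2B gene kept less of its control level than the H2A gene in all 5: H2BC11 kept 2.29% and H2AC11 20.9%, and H2BC4 kept 4.29% and H2AC6 11.1%. For H2AC13 and H2BC13 the levels were 5.94% and 2.11%, and for H2AC20 and H2BC21 they were 17% and 8.73%. H2BC26 had 0 counts there and H2AC25 had 3. Caffeine parted H2AC11 (64.4% of control) from H2BC11 (18.1%), and with arsenic at 15 µM the order of that pair was reversed, at 4.69% and 12.6%. It was also reversed there for H2AC13 and H2BC13 (9.86% and 10.9%) and for H2AC6 and H2BC4 (10% and 11.2%), but not for the other pairs. With acetaminophen and exosomes the H2B gene kept more than the H2A gene in every pair but H2AC13 and H2BC13 (35% and 10.5%). The windows printed above for H2AC11 and H2BC11 overlap by 253 bases, and the values of these genes differed in these libraries. A link between promoters and values was not tested.

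Among 10959 genes outside the clusters that averaged at least 5 CPM, the 5 whose log2 level followed the summed histone level most closely over the 9 libraries were FAM222B (Pearson's r 0.97), MMP15 (0.93), DEPP1 (0.92), MRPL34 (0.92) and TFB1M (0.91). MMP15 stood at 148 CPM in the control, 35.1 with acetaminophen and 43.8 with arsenic at 15 µM. All points share the libraries and their depth, and the genes were picked as the closest of many.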

How the data were processed

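Per the labels, RNA of HuH-7 cultures was isolated with the mirVana kit, depleted of ribosomal RNA with RiboMinus, turned into libraries (Ion Total RNA-Seq Kit v2) and read on an Ion Torrent Proton. What the authors deposited are raw counts of reads for each Ensembl gene, 1 file for each of 9 libraries. Alignment with TopHat2 2.0.13 to GRCh37 and counting with HTSeq 0.6.1 are named in the submitters' processing notes. The annotation release and the strand setting were not given in the sources used here, and reads of overlapping or antisense genes cannot be told apart. HTSeq's summary lines, 42.3% to 70.3% of reads, were left out.

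Genes that reached 1 CPM in at least 2 of 9 libraries (18237) were scaled by TMM and fitted in R 4.3.3 with edgeR 4.0.16 (terms for acetaminophen, exosomes, caffeine and arsenic, 4 residual degrees of freedom), with DESeq2 1.42.0 beside it. The SE is the log2 fold change divided by the square root of F. Ratios of 2 libraries have exact conditional binomial 95% intervals (Python 3.11.15, scipy 1.17.1), and sets of members apart need a ratio of 2 with 0.5 prior counts. Names, lengths and GC content come from GENCODE 29 (GRCh38), and no coordinates were converted. The scripts were tested on simulated data.

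Members, lists, tests and the naming rule were chosen with earlier results of these data known. Named were the 4 members of each family with the highest mean (of which the text describes those that a comparison turns on), called members or else the 3 with the smallest p per term, the 2 highest and 2 lowest per pair by the interval bound nearest 1, up to 4 genes per list by mean level, and the 5 genes most like the summed level. RRM2, PCNA, CCNE1, NPAT and other members or list genes named beside these were chosen after their values were seen.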

Additional observations from a re-analysis of the deposited data

Results flagged for a closer look

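Caffeine had opposite signs on the 2 backgrounds. The control was among the 2 highest libraries for 27 of 28 tested members, and acetaminophen alone among the 2 lowest for 22. Any library that lies between these is below the control and above acetaminophen alone. The members' median log2 ratio was -1.73 for caffeine against control and 1.19 for acetaminophen with caffeine against acetaminophen, pairs that share no library. Of 28 tested members, 27 were negative in the first and 24 positive in the second, and 16 were apart in opposite directions (3.07% of all genes). With GC and length trends removed 14 were (1.99% of all genes), and H2AC21 and H4C11 were apart and lower in the second pair. The 80 ribosomal protein genes also had medians of opposite sign, -1.06 and 1.33, with 30 apart in opposite directions; their part was not tested. The extra term that tests this difference by edgeR called no member (smallest adjusted p 1).

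Exosomes gave a median of -0.68 against control and 1.55 when added to acetaminophen, with 28 members negative and 24 positive, and H2BC4 and H2BC5 apart in opposite directions (1.37% of all genes). The ribosomal protein medians were -0.49 and 1.87, and their part was not tested. The extra term by edgeR called no member (smallest adjusted p 1).

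H3C13 departed at 15 µM from the level that the arsenic libraries share, by -3.57 on the log2 scale (edgeR adjusted p 0.037). This rests on 1 library. DESeq2 gave an adjusted p of 0.116, and edgeR made no call with DESeq2 size factors or without the count filter.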

How the results depend on the processing

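Counts of members called by edgeR, members apart and summed levels were recomputed under the alternatives. For acetaminophen, 0 member calls became 1 with DESeq2 and 1 without the count filter. They became 0 to 4 with a library left out and 4 in the 6 libraries without arsenic. Over all genes the 4 calls became 49 with DESeq2, 46 without the filter, 179 without the arsenic 5 µM library and 240 without arsenic. For arsenic the 0 member calls became 1 without the count filter and 0 to 5 with a library left out. Over all genes the 90 calls became 269 without the filter and 778 without the arsenic 5 µM library. For arsenic at 15 µM, 1 call became 3 with DESeq2, 0 with DESeq2 size factors and 0 without the count filter. Members apart went from 7 to 15 at a ratio of 1.5 for acetaminophen with caffeine against caffeine, and from 3 to 9 (DESeq2 size factors), 5 (scaling on protein-coding genes) and 20 (ratio of 1.5) for exosomes against control. With the exosome library in place of the control, an alternative chosen after seeing the data, they went from 23 to 14 for caffeine and from 17 to 6 for arsenic with copper, and were 23 for acetaminophen and 25 for arsenic at 15 µM. The summed level with arsenic at 5 µM over control, as a share of protein-coding counts, was 0.343, against 0.215 as a share of gene counts.

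The exosome median turned to -0.0238 with DESeq2, -0.0254 with its size factors and -0.0027 without arsenic, and ranged from -0.98 to 2.17 with a library left out. With a library left out, the acetaminophen median ranged from -2.14 to -0.56 (without the control; -0.57 without acetaminophen), the caffeine median from -1.41 to 1.15 (without the control; 0.52 without caffeine) and the arsenic median from -1.77 to 0.87 (without the control). No paired analysis was possible because each condition is 1 library and the labels give no replicate numbers. In the control a level under 3.15 CPM rests on under 3 counts, and no setting measures the spread between cultures.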
